A study of Mus musculus with 6 samples.

Results

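The 35 genes described here encode soluble hydrolases and membrane proteins of the lysosome, together with 3 transcription factors of the MiT family that control them. The rule that names them is a list of symbols with no threshold on a measured value, although the list was drawn up with earlier results of these data known. All 35 were found among the 23282 genes counted. The list holds 8 glycosidases, 5 sulfatases, 7 genes of lipid breakdown and sterol export, 5 other luminal proteins, 7 membrane proteins and the 3 MiT factors. Read counts were available for 9 libraries from 6 samples of mouse blood-forming cells, each sample being a group of its own.

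All cells came from mice of a mixed 129/Sv x C57BL/6 background. The study asked how Mll4, a histone H3 lysine 4 methyltransferase whose gene is Kmt2d, shapes gene expression in normal and in MLL-AF9-transformed blood cells. MLL-AF9 is a leukaemia fusion oncogene. For the first transformation, marrow carrying floxed Mll4 and MxCre was transformed with MLL-AF9 and then infected with a retrovirus that carried Cre and Tomato (labelled Mll4 deleted, 2 libraries) or Tomato alone (intact, 2 libraries). Cells positive for GFP and Tomato were sorted 5 days after that infection, so exposure to Cre goes with the deletion label. For the second transformation, Mll4-null marrow received MLL-AF9 with a drug resistance gene at the same time as a retrovirus for FOXO3 and GFP (2 libraries) or an empty vector (1 library). These cells were selected in G418 and sorted for GFP, and all MLL-AF9 cells are labelled with 14 days of growth. Both groups of the second transformation are labelled Mll4-null, so FOXO3 was measured only in cells with that label. LSK cells, which include the stem cells of the marrow, came from polyIC-treated littermates aged 2 months, labelled wild type or floxed for Mll4, both with MxCre, a Cre switched on by interferon (1 library each). LSK libraries were amplified by PCR from about 50 cells. Not given in the sources used here are the age of the donors of the MLL-AF9 cells and the number of animals or cultures behind the libraries, and p-values measure the spread between these libraries only.

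Lysosomes are acidic compartments in which macromolecules delivered by endocytosis, phagocytosis and autophagy are broken down. Most soluble hydrolases reach them by a mannose 6-phosphate tag, whereas LIMP-2 (Scarb2) carries glucocerebrosidase and sortilin can carry prosaposin. TFEB, TFE3 and MITF bind E-box sequences in promoters of many lysosomal genes and move to the nucleus when mTORC1 is inactive at the lysosome. Macrophages are rich in lysosomes, and genes of this list are known for high levels in them. Loss of many of these enzymes causes storage diseases.

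Total counts ranged from 25895041 to 61950773 per library, so counting error was small for all members in MLL-AF9 cells. The FOXO3 libraries differed from each other little more than by sampling (chi-square per degree of freedom 1.97, against 146 and 191 in the other pairs), and their counts were summed to 1 library in the tests. Xist and Ddx3y placed 1 male and 1 female library in each Mll4 pair of the first transformation, and only male libraries in the second. Kmt2d was at 79.5 and 61.7 CPM (counts scaled by the library total) in the intact libraries and at 95.6 and 73.7 in those labelled Mll4 deleted. It was highest in the libraries labelled Mll4-null, at 116 with the empty vector and at 102 and 115 with FOXO3. These counts cover the whole gene, of which a floxed allele loses only a part, so they do not check the deletion or the null label. In LSK cells Kmt2d was at 1.88 CPM in the wild type library and higher, at 13.9, in that labelled Mll4 deleted. Foxo3 was at 1292 and 1309 CPM in the FOXO3 libraries and at 27.3 in the empty-vector library.

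Promoters were examined for the E-box core CACGTG, for TCACGTGA and for the latter with a further G before and C after it. These motifs read the same on both strands and lie inside each other. RefSeq (GRCm38.p6) gave windows of 250 bases before and 50 bases after the start for 32 members, 42 windows in all. Asah1 and Galns had no entry and the Npc1 window was not used. The core was present in 8 of the 32 members (25%), which are Arsa, Cln3, Gaa, Gla, Glb1, Lamp1, Mcoln1 and Sgsh, against 11% of the genes tested in MLL-AF9 cells and 8.09% of all genes with a window. TCACGTGA was found in 3 members (9.38%, against 1.96% of genes tested) and the longest motif in 1 member (Cln3; 3.12%, against 0.686%). The 4 promoters below are those with the core whose genes had the smallest p in the comparison of labelled Mll4 deletion with intact cells. They show how the E-boxes are spaced. Capitals mark each core, or TCACGTGA where the core lies in it, each sequence runs 5′ to 3′ on the gene's strand, and base 251 is the start.
Gla (chrX:134600956-134601255, minus strand): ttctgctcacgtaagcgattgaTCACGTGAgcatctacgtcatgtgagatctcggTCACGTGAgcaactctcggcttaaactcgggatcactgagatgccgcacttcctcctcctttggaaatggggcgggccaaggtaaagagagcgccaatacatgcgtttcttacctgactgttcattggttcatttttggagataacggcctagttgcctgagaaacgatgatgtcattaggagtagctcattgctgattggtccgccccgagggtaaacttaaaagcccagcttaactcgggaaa
Cln3 (chr7:126583187-126583486, minus strand): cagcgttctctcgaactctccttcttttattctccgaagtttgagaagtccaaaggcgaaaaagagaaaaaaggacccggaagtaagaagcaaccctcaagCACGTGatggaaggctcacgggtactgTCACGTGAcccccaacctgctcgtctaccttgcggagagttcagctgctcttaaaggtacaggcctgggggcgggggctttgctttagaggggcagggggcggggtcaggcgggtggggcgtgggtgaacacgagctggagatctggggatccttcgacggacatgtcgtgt
Mcoln1 (chr8:3500269-3500568, plus strand): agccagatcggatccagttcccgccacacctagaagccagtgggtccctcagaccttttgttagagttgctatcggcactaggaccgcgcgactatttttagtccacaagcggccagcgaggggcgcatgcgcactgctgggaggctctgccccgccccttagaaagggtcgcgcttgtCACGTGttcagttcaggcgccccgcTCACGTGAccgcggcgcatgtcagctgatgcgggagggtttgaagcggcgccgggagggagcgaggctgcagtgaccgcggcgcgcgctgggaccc
Lamp1 (chr8:13158911-13159210, plus strand): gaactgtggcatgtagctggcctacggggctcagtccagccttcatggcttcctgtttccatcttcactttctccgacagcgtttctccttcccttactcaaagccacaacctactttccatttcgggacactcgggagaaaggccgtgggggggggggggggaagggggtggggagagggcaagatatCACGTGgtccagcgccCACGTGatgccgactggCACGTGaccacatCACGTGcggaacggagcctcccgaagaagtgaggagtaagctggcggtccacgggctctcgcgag

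The cores began 227 and 194 bases before the start in Gla and 149 and 121 bases before it in the second listed window of Cln3. In Mcoln1 they began 71 and 45 bases before the start. Lamp1 held 4 cores, which began 61, 45, 28 and 15 bases before the start. A match is a description of letters, not a measured binding site, and a member without one may have such a site outside the window.

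In MLL-AF9 cells all 35 members were detected in every library. Per kilobase of exon, prosaposin (Psap), the precursor of the saposins that help hydrolases act on sphingolipids, had the highest level of the 35 in the intact cells (6169 CPM per kb) and in those labelled Mll4 deleted (2443 CPM per kb). Laptm5, a lysosomal membrane protein of blood cells, had the next highest level in both (755.9 and 624.4 CPM per kb) and the highest in both groups of the second transformation (368.5 with the empty vector and 321.1 with FOXO3). Lamp1, a major glycoprotein of the lysosomal membrane, followed by Grn, the precursor of granulins, and Hexa, a hexosaminidase subunit, came next in the first transformation. The lowest level per kilobase in that transformation was that of Sgsh, a heparan sulfatase (1.40 and 1.19 CPM per kb). The order within the list was thus similar between groups at both ends, while Psap and Gm2a, the GM2 activator, stood lower in it in the second transformation (Gm2a 13th of 35 in intact cells and 21st with the empty vector).

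**Figure D1:**
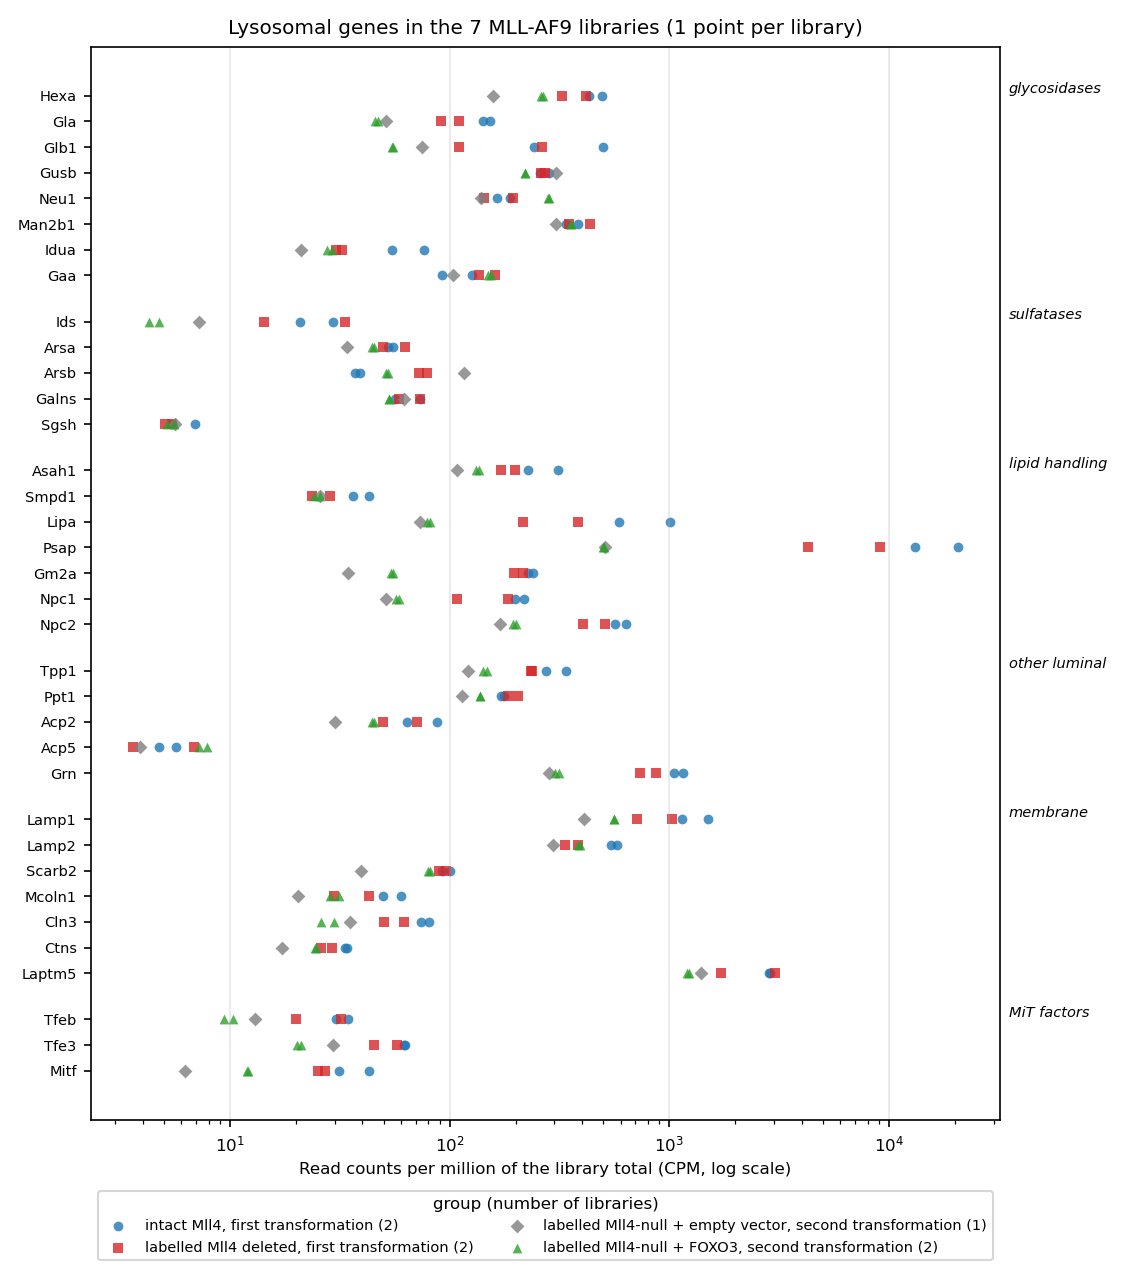
CPM (log scale) of each of the 35 lysosomal genes, 1 point per MLL-AF9 library, with genes ordered by role. Blue circles (intact) lie furthest to the right for most genes and grey diamonds and green triangles (the second transformation) furthest to the left, with the widest gap at Psap. At Arsb the blue circles lie furthest to the left and the grey diamond furthest to the right, with the green triangles left of the libraries labelled Mll4 deleted.

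The 35 members together took 23788 and 32271 CPM in the intact libraries, 13020 and 17234 in those labelled Mll4 deleted, 5166 with the empty vector and 5620 and 5629 with FOXO3. Psap alone made up 55.3% and 64.1% of that sum in the intact libraries, 32.8% and 53% in those labelled Mll4 deleted, and 8.86% to 9.87% in the second transformation. The sum over the other 34 genes was 10626 and 11581 CPM in the intact libraries, 8752 and 8094 in those labelled Mll4 deleted, 4656 with the empty vector and 5116 and 5130 with FOXO3. The groups of the first transformation therefore did not overlap with or without Psap, and both lay above the second transformation.

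The first comparison, cells labelled Mll4 deleted minus intact cells, asks which genes depend on Mll4 in transformed cells. Most members had lower values in the libraries labelled Mll4 deleted, but no member passed the threshold. In the quasi-likelihood test of edgeR, adjusted by Benjamini-Hochberg over 14990 genes, 0 of 35 members were called higher and 0 lower, against 1.23% and 0.854% of all genes tested. At an unadjusted p under 0.05, 16 members were lower (45.7%, against 10.3% of all genes) and 1 was higher (Arsb, 2.86%, against 14.4%). With the FOXO3 files kept as separate libraries, the same test called 8 members lower (Gla, Idua, Smpd1, Lipa, Grn, Lamp2, Cln3 and Ctns; 22.9%, against 6.94% of all genes) and Arsb higher (against 7.97%). That fit counts files that differed by little more than sampling as replicates in the shared spread. DESeq2 called 14 members lower (40%, against 7.28%) and Arsb higher (against 7.76%). The log2 fold change was negative for 33 of 35 members (47.2% of all genes), with a median of −0.53 beside 0.035 over all genes tested. After TMM scaling, both libraries labelled Mll4 deleted lay below both intact libraries for 26 of 35 members (25.6% of all genes) and above them for 1 (31.3%). In CPM by total count these were 19 members (15.7%) and 3 members (Gaa, Arsb and Ppt1; 43.3%). Macrophage markers, summed over 15 genes, were also lower in these libraries (24476 and 35034 CPM intact, 6733 and 13162 labelled Mll4 deleted), and their part in the members' values was not tested. Whether fewer cells of a lysosome-rich type or less of these RNAs per cell lay behind a lower value cannot be told apart in bulk libraries. Leaving out intact library 1 or 2 left 0 calls over all genes, with smallest adjusted p-values for a member of 0.291 and 0.275. Leaving out library 1 or 2 of those labelled Mll4 deleted gave 2 members (Gla and Glb1) and 1 member (Npc1) called lower.

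Genes of lipid breakdown and sterol export had the lowest median log2 fold change of the roles, −0.76, with 7 of 7 negative and none called. Differences between roles were not tested. Psap was at 13163 and 20690.1 CPM in the intact libraries and at 4268 and 9139 in those labelled Mll4 deleted. The groups did not overlap, but the libraries of each group differed widely, and the log2 fold change was −1.56 ± 0.47 (SE, unadjusted p = 0.02, adjusted p = 0.135). Lipa, the acid lipase that frees cholesterol from its esters, was at 592 and 1003 CPM in the intact libraries and at 216 and 383 in those labelled Mll4 deleted. Its fold change of −1.64 ± 0.42 was the lowest of the 35 (adjusted p = 0.103). Smpd1, acid sphingomyelinase, was at 42.7 and 36.4 CPM against 23.5 and 28.4, a tight separation at a lower level (−0.81 ± 0.18, adjusted p = 0.0819). Asah1, acid ceramidase, had a fold change of −0.76 ± 0.24 (adjusted p = 0.148). The cholesterol exporters Npc1 and Npc2 had −0.71 ± 0.29 and −0.61 ± 0.22 (adjusted p = 0.216 and 0.172). Gm2a was nearest to no difference in this role (−0.39 ± 0.17, adjusted p = 0.231).

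Among the glycosidases the median was −0.40, and the members were uneven. Idua, which removes iduronic acid from heparan and dermatan sulfate, was at 54.9 and 76.1 CPM in the intact libraries and at 30.3 and 32.3 in those labelled Mll4 deleted. The groups were well apart, and the fold change of −1.29 ± 0.24 had the smallest adjusted p of the 35 (0.0658). Gla, alpha-galactosidase A, was at 153 and 142 CPM against 110 and 90.9 (−0.76 ± 0.16, adjusted p = 0.0765). Glb1, the lysosomal beta-galactosidase, was at 497 and 242 CPM against 263 and 111, so that the CPM of the groups overlapped (−1.17 ± 0.50, adjusted p = 0.228). Hexa had −0.53 ± 0.22, Neu1, a sialidase, −0.27 ± 0.21 and Gusb, beta-glucuronidase, −0.24 ± 0.18. Man2b1, an alpha-mannosidase, was close to level (−0.086 ± 0.19), and with scaling by total count alone its sign turned (0.12). Gaa, which breaks down glycogen, was 1 of the 2 members with a positive value (0.24 ± 0.18, adjusted p = 0.472).

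Of the sulfatases 4 of 5 had negative values, none of them called, with a median of −0.17. Arsb, which removes sulfate from dermatan and chondroitin sulfate, was the exception of the list. It was at 36.9 and 38.9 CPM in the intact libraries and at 79.1 and 72.6 in those labelled Mll4 deleted. The groups did not overlap, with the higher values in the libraries labelled Mll4 deleted (0.79 ± 0.16, adjusted p = 0.0712). Arsa, Galns and Sgsh had fold changes of −0.14 ± 0.19, −0.17 ± 0.19 and −0.43 ± 0.26. Ids, iduronate 2-sulfatase, spanned 20.8 and 29.3 CPM in the intact libraries and 33.4 and 14.3 in those labelled Mll4 deleted, so the latter lay on both sides of the former. With total-count scaling Arsa and Galns were slightly positive (0.072 and 0.028).

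Of the other luminal proteins, Grn was at 1054 and 1152 CPM in the intact libraries and at 738 and 873 in those labelled Mll4 deleted. These did not overlap (−0.67 ± 0.21, adjusted p = 0.14). Tpp1, a tripeptidyl peptidase, had −0.60 ± 0.20 (adjusted p = 0.161) and Acp2, an acid phosphatase, −0.54 ± 0.28 (adjusted p = 0.307). Ppt1, which removes palmitate from proteins, was level (−0.054 ± 0.16) and turned to 0.16 with total-count scaling. Acp5, the tartrate-resistant acid phosphatase of macrophages and osteoclasts, was at 3.60 to 6.87 CPM in the first transformation with overlapping groups.

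Of the lysosomal membrane proteins 7 of 7 had a negative fold change, with a median of −0.67, but none was called. Lamp1 was at 1147 and 1501 CPM in the intact libraries and at 714 and 1023 in those labelled Mll4 deleted (−0.83 ± 0.29, adjusted p = 0.168). Lamp2, the partner glycoprotein needed for fusion with autophagosomes, was at 543 and 578 CPM against 385 and 336. This was the clearest separation of the role, with −0.85 ± 0.19 and an adjusted p of 0.082. Mcoln1, a lysosomal calcium channel, was at 49.9 and 59.9 CPM against 29.7 and 43.0 (−0.81 ± 0.25, adjusted p = 0.144). Cln3, a membrane protein lost in juvenile Batten disease, was at 80.9 and 74.0 CPM against 62.0 and 50.3 (−0.67 ± 0.17, adjusted p = 0.0967). Ctns, the cystine exporter, had −0.50 ± 0.17 and Scarb2 −0.27 ± 0.16. Laptm5 had −0.49 ± 0.31, and 1 library labelled Mll4 deleted (3020 CPM) lay above both intact libraries in CPM (2851 and 2876).

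Transcripts of the MiT factors themselves had fold changes of −0.53 ± 0.29 (Tfeb), −0.49 ± 0.18 (Tfe3) and −0.72 ± 0.25 (Mitf), with adjusted p-values of 0.323, 0.183 and 0.165. Mitf was at 31.2 and 43.1 CPM in the intact libraries and at 25.3 and 27.2 in those labelled Mll4 deleted. The 8 members with CACGTG in the window had a median of −0.72 and the 24 without it −0.52.

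**Figure D2:**
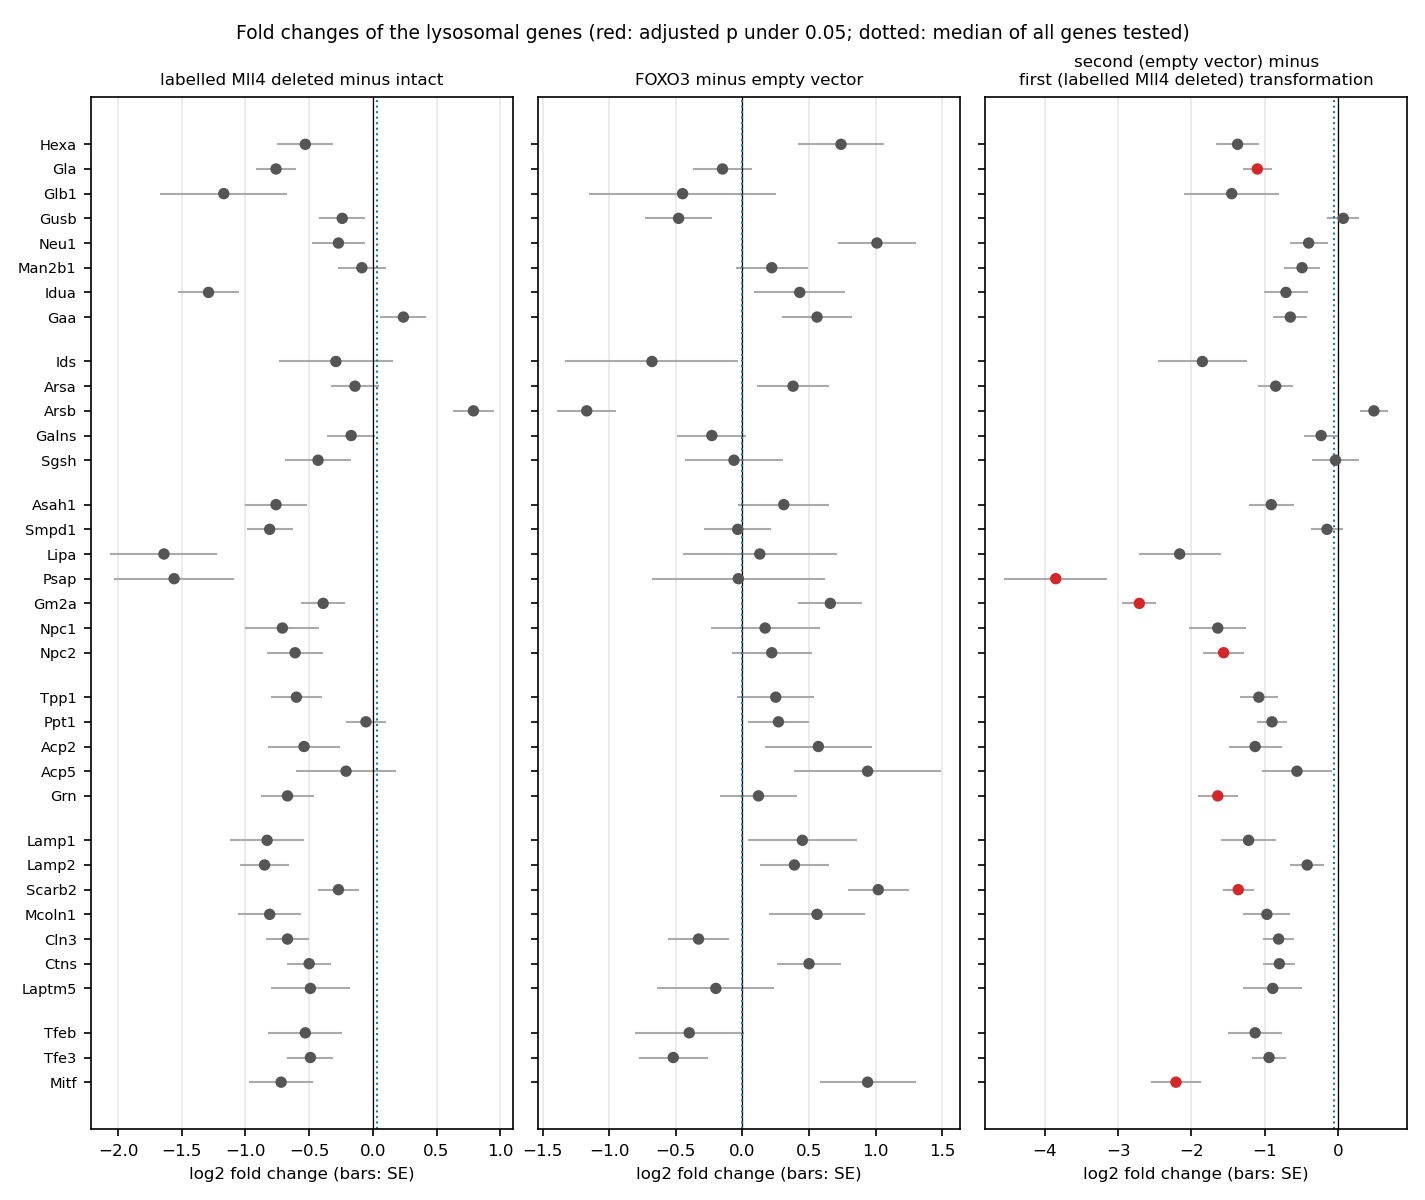
Log2 fold changes with SE bars of the 35 lysosomal genes, ordered by role, for the 3 comparisons of MLL-AF9 cells. Red points passed an adjusted p of 0.05, and the dotted line is the median of all genes tested. In the left panel 33 of 35 points lie left of 0, with Arsb far to the right. The middle panel holds points on both sides. In the right panel 33 of 35 lie left of 0 and 7 are red.

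FOXO3 minus empty vector asks what FOXO3 changes in cells labelled Mll4-null. With the FOXO3 files summed, it rests on 1 library on each side. The spread comes from the pairs of the first transformation and is assumed to hold here, so no p-value of that fit measures spread between FOXO3 cultures. A few members had values near 2-fold higher with FOXO3 and Arsb had the lowest, but none was called. In the edgeR test 0 of 35 members were higher and 0 lower, against 0.213% and 0.974% of all genes. At an unadjusted p under 0.05, 4 members were higher (Neu1, Gm2a, Scarb2 and Mitf; 11.4%, against 4.94%) and 1 was lower (Arsb, 2.86%, against 8.52%). With the FOXO3 files kept separate, Scarb2 was called higher (background 2.2%) and Arsb lower (4.93%), and DESeq2 made the same 2 calls (2.05% and 5.27%). The fit with separate files treats the FOXO3 files, which differed by little more than sampling, as replicates. DESeq2 was run with these files summed. The median over the members was 0.22 beside 0 over all genes, with 22 positive and 13 negative values. The fits without library 1 or library 2 of those labelled Mll4 deleted each called Arsb lower, and the fits without either intact library called 0 of all genes.

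Scarb2, the receptor that carries glucocerebrosidase to lysosomes, was at 39.6 CPM with the empty vector and at 79.6 and 81.3 with FOXO3. In CPM by total count the FOXO3 libraries stood below the range of the first transformation (89.3 to 100.4 CPM). The fold change of FOXO3 minus empty vector was 1.02 ± 0.23 (adjusted p = 0.136). Neu1, which trims sialic acids, was at 139 CPM with the empty vector and at 284 and 280 with FOXO3. These were its highest levels in any library, above the 143 to 194 CPM of the first transformation (1.01 ± 0.29, adjusted p = 0.23). Mitf was at 6.21 CPM with the empty vector and at 12.0 in both FOXO3 libraries (0.94 ± 0.36, adjusted p = 0.349). Tfeb and Tfe3 lay on the other side of 0, with −0.40 ± 0.41 and −0.52 ± 0.26. Gm2a was at 34.5 CPM against 55.1 and 54.2 (0.66 ± 0.24, adjusted p = 0.32), still far below its 197 to 238 CPM in the first transformation. Hexa, whose subunit works with that activator on GM2 ganglioside, was at 157 CPM against 267 and 260 (0.74 ± 0.32, adjusted p = 0.419).

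Arsb was at 117 CPM with the empty vector, its highest level in any library, and at 52.5 and 51.5 with FOXO3. Its fold change was −1.17 ± 0.22 (adjusted p = 0.0945), the smallest adjusted p of the 35 in this comparison. Psap was level at 509.7 CPM against 503.5 and 498.5 (−0.031 ± 0.65), with a wide SE. Lipa (0.13 ± 0.58), Grn (0.12 ± 0.29), Npc1 (0.17 ± 0.41) and Smpd1 (−0.036 ± 0.25) were also near 0. By role, 5 of 5 luminal proteins outside the larger classes and 5 of 7 membrane proteins were positive (medians 0.27 and 0.45), and the sulfatases had a median of −0.23. Members with and without CACGTG had medians of 0.16 and 0.23.

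Among the comparisons of MLL-AF9 cells, the largest differences of the members were between the transformations. The comparison is the empty-vector cells of the second transformation minus the cells labelled Mll4 deleted of the first. These differ in the transformation, the way Mll4 is labelled as removed, the vectors, the selection and the sort. They also differ in part in sex (male, against 1 male and 1 female library), and these differences cannot be told apart. In this comparison 7 members fell (Gla, Psap, Gm2a, Npc2, Grn, Scarb2 and Mitf; 20%, against 5.9% of all genes tested) and 0 rose (against 1.07%). Of members at an unadjusted p under 0.05, 23 were lower (65.7%, against 17.5%) and 1, Arsb, was higher (against 10.5%), and DESeq2 called 20 lower (57.1%, against 13.2%) and 0 higher (against 6.38%). With separate FOXO3 files, which counts these near-identical files as replicates, 16 were called lower (45.7%, against 12.2%) and Arsb higher (against 9.54%). The median over the members was −0.94 beside −0.052 over all genes tested. All 3 libraries of the second transformation, FOXO3 included, lay below all 4 of the first for 27 of 35 members (25.2% of all genes) and above them for 0 (24.2%). In CPM by total count these were 24 (19.7%) and 0 (32.9%). The calls rest on both intact libraries, which are no part of the contrast but enter the shared spread. Without either of them, 0 members and 0 of all genes were called. A term for the sex of the library, or a fit of only the libraries compared, also left 0 calls, and without library 1 of those labelled Mll4 deleted 17 members were called lower.

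Psap, at 4268 and 9139 CPM in cells labelled Mll4 deleted, was at 509.7 with the empty vector. This was the largest fold change of the list in MLL-AF9 cells (−3.85 ± 0.70, adjusted p = 0.042). Gm2a was at 215 and 197 CPM against 34.5, and its groups were tight (−2.71 ± 0.23, adjusted p = 0.0155). Both genes encode activator proteins that lift lipids out of membranes for the hydrolases. Npc2, a soluble cholesterol carrier, was at 406 and 507 CPM against 169 (−1.56 ± 0.28, adjusted p = 0.0422). Grn was at 738 and 873 CPM against 282 (−1.64 ± 0.27, adjusted p = 0.0348). Mitf was at 25.3 and 27.2 CPM against 6.21 (−2.21 ± 0.34, adjusted p = 0.0317), whereas Tfeb (−1.13 ± 0.37, adjusted p = 0.129) and Tfe3 (−0.94 ± 0.23, adjusted p = 0.0784) did not pass. Scarb2 was at 89.3 and 96.4 CPM against 39.6 (−1.36 ± 0.21, adjusted p = 0.0313). Gla was at 110 and 90.9 CPM against 51.2 (−1.10 ± 0.20, adjusted p = 0.0442).

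Not every member had lower values in the second transformation. Gusb, at 271 and 260 CPM in cells labelled Mll4 deleted, was at 305 with the empty vector (0.072 ± 0.22). Arsb was at 79.1 and 72.6 CPM against 117 (0.49 ± 0.19, adjusted p = 0.166), so its level with the empty vector lay above both groups of the first transformation. Sgsh (−0.034 ± 0.32), Smpd1 (−0.15 ± 0.22) and Galns (−0.23 ± 0.23) were near level. Lipa had −2.16 ± 0.56 and Ids −1.85 ± 0.61 without passing (adjusted p = 0.0844 and 0.132). Across the 3 comparisons, which share libraries, Arsb had the values 0.79, −1.17 and 0.49, each opposite in sign to the median of the members. In the same order Psap had −1.56, −0.031 and −3.85. Members with and without CACGTG had medians of −0.91 and −1.01 in the comparison of transformations.

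Most macrophage markers, like most members, had lower values in cells labelled Mll4 deleted and in the second transformation. With FOXO3 most of these markers did not go with the members. Of 14 tested markers 12 were negative, with a median of −1.79, while the members had a median of 0.22. Itgam went the other way, with 257 CPM with the empty vector and 291 and 294 with FOXO3. Cd14 did so too, at 5.1 CPM against 9.33 and 9.98. Of 15 such markers 14 were tested. In cells labelled Mll4 deleted, Itgax and Clec7a were called lower (−3.07 ± 0.37 and −1.93 ± 0.27, adjusted p = 0.0484 each; 0.854% of all genes). Between transformations 10 of the 14 were called lower, against 5.9% of all genes. Their sums in the first transformation are given above, and in the second they were 968 CPM with the empty vector and 489 and 491 with FOXO3. Lyz2 was the largest part of this sum outside the FOXO3 libraries, at 19157 and 28578 CPM in the intact libraries, 3416 and 8534 in those labelled Mll4 deleted and 530 with the empty vector. In the FOXO3 libraries it was at 147 and 146 CPM, and Itgam, at 291 and 294, was the largest part. Ccr2, a chemokine receptor of monocytes, went against the list, with 221 and 256 CPM in the intact libraries and 898 and 481 in those labelled Mll4 deleted, and Cx3cr1 did so at a low level (0.27 and 0.303 against 0.646 and 2.71 CPM). Csf1r, the macrophage growth factor receptor, was at 258 and 352 CPM in the intact libraries, 156 and 403 in those labelled Mll4 deleted and 1.70 to 7.46 in the second transformation. Ly86 was at or near 0 in all MLL-AF9 libraries (at most 0.158 CPM). The libraries had the same order by summed markers as by Psap, except for the FOXO3 pair. In the opposite direction, 4 of 5 primary granule markers rose in cells labelled Mll4 deleted (Ms4a3, Prtn3, Ctsg and Elane), against 1.23% of all genes. The 5 markers summed to 1711 and 2446 CPM in the intact libraries, 10201 and 13608 in those labelled Mll4 deleted, 12484 with the empty vector and 20098 and 20031 with FOXO3. The calls of markers were lost, as all others were, without either intact library. Markers named here other than Lyz2, Itgam and Elane were taken after their values were seen. The part of these cell types in the results for the lysosomal genes was not tested.

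**Figure D3:**
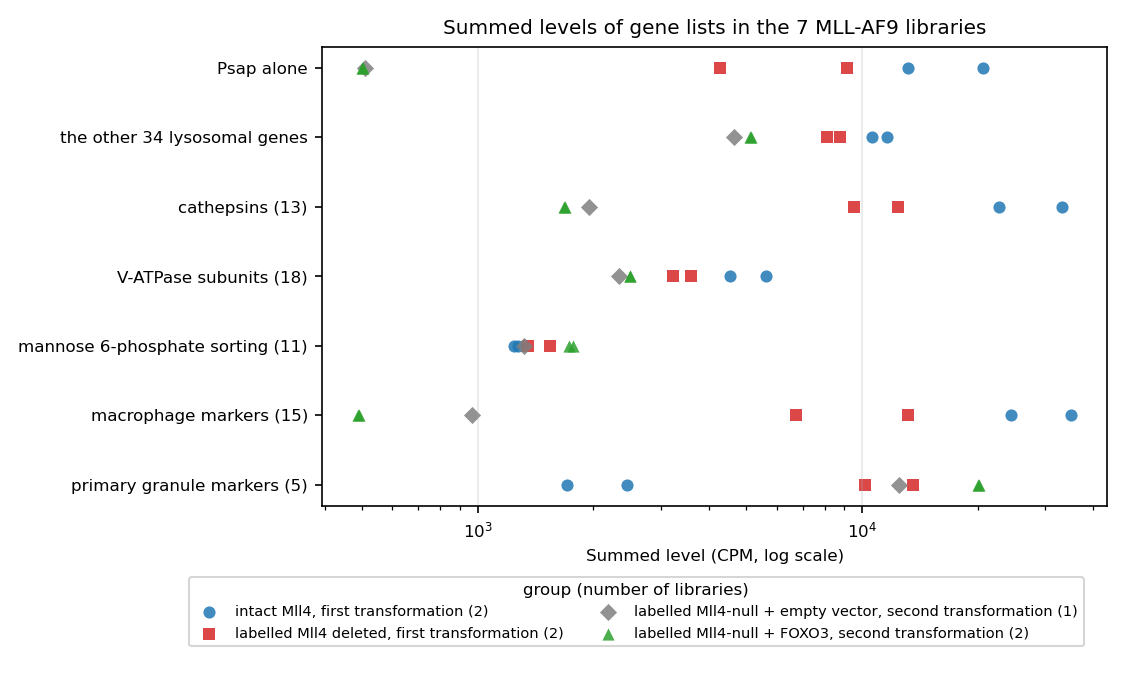
Summed CPM (log scale) of gene lists, 1 point per MLL-AF9 library, with the number of genes in brackets. Psap, the other 34 lysosomal genes, the cathepsins, the V-ATPase subunits and the macrophage markers share the order intact, labelled Mll4 deleted, second transformation, while the primary granule markers are lowest in the intact libraries and highest with FOXO3, with the empty vector between the libraries labelled Mll4 deleted, and the mannose 6-phosphate sorting genes lie close together.

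The other genes of the pathway were taken from 7 lists that do not include the members. In cells labelled Mll4 deleted no gene of the 7 lists was called, against 1.23% of all genes called higher and 0.854% lower. The median was −0.54 for 19 other hydrolases and cofactors, −0.87 for 13 cathepsins, the lysosomal proteases, −0.54 for 17 tested subunits of the V-ATPase, the pump that acidifies lysosomes, and −0.44 for 21 other membrane proteins. It was 0.091 for 11 genes of mannose 6-phosphate sorting, −0.23 for 18 genes of mTORC1 and MiT control and −0.29 for 23 autophagy genes. With separate FOXO3 libraries, 7 of 19 hydrolases, 5 of 13 cathepsins, 8 of 17 V-ATPase subunits, 7 of 21 membrane proteins, 0 of 11 sorting genes, 2 of 18 genes of mTORC1 and MiT control and 7 of 23 autophagy genes were called lower, against 6.94% of all genes. These calls come from the fit that counts the near-identical FOXO3 files as replicates. In that fit 1 autophagy gene (Atg12, named after its value was seen) was called higher, against 7.97% of all genes. Between transformations, where 5.9% of all genes tested were called lower, 11 of 13 cathepsins fell, with a median of −3.50. In the other lists 6 of 19 hydrolases (Ctsa being in both lists), 2 of 21 membrane proteins, 2 of 17 V-ATPase subunits and 2 of 23 autophagy genes fell. No gene of the 7 lists was called higher there, against 1.07% of all genes. Cathepsin H (Ctsh), at 53.6 and 78.6 CPM in cells labelled Mll4 deleted, was at 6.40 with the empty vector (−3.50 ± 0.37, adjusted p = 0.0185).

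With FOXO3, 3 genes of these lists fell, 1 in each of 3 lists, against 0.974% of all genes. Lgmn, the asparaginyl protease legumain, was at 8.53 CPM with the empty vector and at 0.108 and 0.156 with FOXO3 (−5.97 ± 0.74, adjusted p = 0.044). Mcoln2, a channel related to Mcoln1, was at 3.69 CPM against 0.0539 and 0.0446 (−6.18 ± 0.65, adjusted p = 0.0321). Atp6v0d2, a V-ATPase subunit of macrophages and osteoclasts, was at 18 CPM against 0.216 and 0.379 (−5.87 ± 0.66, adjusted p = 0.0367). The 3 genes were thus nearly silent with FOXO3, while Mcoln1 had 20.3 CPM with the empty vector and 28.5 and 31.3 with FOXO3 (0.56 ± 0.36, adjusted p = 0.652). The fits without either intact library, or with sex as a term, called no gene, these included. Macrophage markers Mrc1 and Itgax, taken after their values were seen, fell in the same comparison (−4.45 ± 0.52 and −5.55 ± 0.67, adjusted p = 0.039 and 0.0412). Their part in the 3 values was not tested.

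In LSK cells the library labelled Mll4 deleted was set against the wild type library without a test, since each group holds 1 library. Kmt2d counts were higher there in the library labelled Mll4 deleted and do not check the label, so no direction below is tied to Mll4. Members summed to 3219 CPM in the wild type library, of which Psap was 4.78%, and to 2798 CPM (1.58%) in the other. Laptm5 alone was at 1423 CPM in the wild type library and 1562 in the other, more than any other member. Of 24 members that averaged 10 CPM or more, 10 were at least 2-fold lower in the library labelled Mll4 deleted (41.7%, against 33.6% of 6436 genes) and 5 at least 2-fold higher (20.8%, against 26.4%). The median log2 ratio was −0.61 for these members and −0.12 for all such genes. With so many genes of any kind past 2-fold, the libraries differ widely in general.

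The widest differences went both ways. Ctns was at 67.3 CPM in the wild type library and at 0.386 in that labelled Mll4 deleted (log2 ratio −7.45, with a 95% exact binomial interval of −8.51 to −6.56). Ppt1 was at 33.1 and 0.772 CPM (−5.42, −6.14 to −4.78). Such values, from 1790 and 880 counts against 10 and 20, stand beside ratios of −1.48 to −2.94 for Hexa, Lamp1, Grn, Psap, Lamp2, Npc2, Man2b1 and Lipa. Asah1 was at 1.84 CPM in the wild type library and at 24.7 in the other (3.75, 3.33 to 4.20), Gusb at 16.8 and 137 (3.03, 2.89 to 3.17) and Arsa at 3.31 and 24.6 (2.90, 2.57 to 3.24). Gm2a (1.71) and Tfe3 (1.53) were the other members at least 2-fold higher. Arsb had 3 counts in the wild type library and 300 in the other (6.68, 5.12 to 8.97), and Tfeb 1 and 192 (7.62, 5.13 to 12.93). The intervals cover counting error only, and amplification from about 50 cells can add far more.

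**Figure D4:**
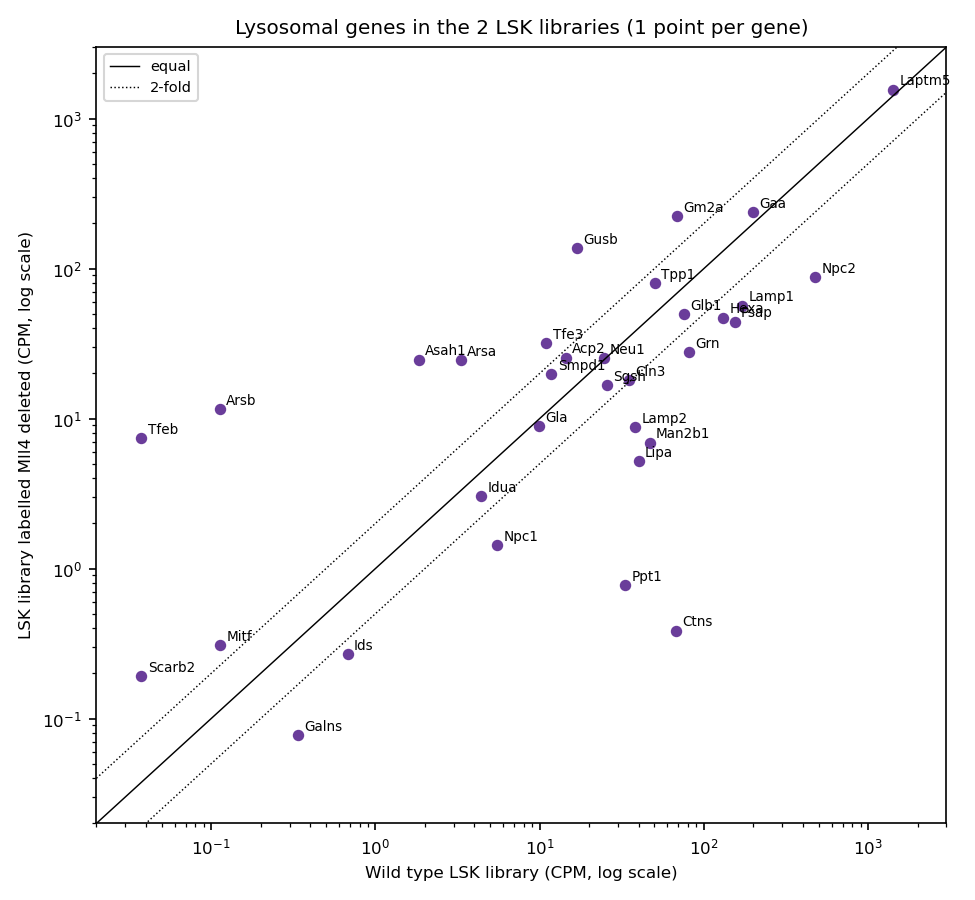
CPM of the lysosomal genes in the LSK library labelled Mll4 deleted (vertical, log scale) against the wild type LSK library (horizontal, log scale), 1 point per gene with counts in both libraries. The solid line marks equal levels and the dotted lines 2-fold. Ctns and Ppt1 lie far below the lines, Tfeb and Arsb far above, and Laptm5 on the line at the top.

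Acp5 and Mcoln1 had 0 counts in both LSK libraries, which allows up to 0.116 and 0.113 CPM in the labelled Mll4 deleted and the wild type library. All other members had at least 1 count in each. The macrophage marker Lyz2 was at 13.7 CPM in the wild type library and 41.8 in the other, and 10 of the 15 macrophage markers had 0 counts in each LSK library. Of the markers used to sort LSK cells, Kit was at 46.8 and 102 CPM and Ly6a, which encodes Sca1, at 80.2 and 28.2, in the same order. LSK and MLL-AF9 libraries were made by different methods, so their levels are set side by side only. Psap had 154 and 44.3 CPM in LSK cells and at least 498.5 in MLL-AF9 cells, whereas Gaa had 198 and 237.5 CPM in LSK cells and 92.6 to 160.5 in MLL-AF9 cells.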

How the data were processed

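RNA sequencing read counts of 9 libraries were deposited by the authors as whole numbers for 23282 NCBI gene numbers, in a file for each library. TopHat2 2.0.11, Bowtie 0.12.8 and the build mm9 are named, per the submitters' processing notes. Not given in the sources used here are the counting tool, annotation and strand setting, so values of overlapping, antisense or near-identical genes are uncertain. Names came from the RefSeq table of GRCm38.p6, which matched 23185 gene numbers and left 97 (0.0373% to 1.01% of counts) that stayed in totals and tests. Promoter sequences are from RefSeq, GRCm38.p6, and were joined by gene number only. Exon lengths are the merged exons of GENCODE M21.

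The test of the deposited counts was that of edgeR 4.0.16 under R 4.3.3 (TMM scaling, default filter, quasi-likelihood test, Benjamini-Hochberg threshold 0.05) in 1 fit over the MLL-AF9 groups with the FOXO3 files summed, since they differed by little more than sampling. Of 14990 genes tested all 35 members passed the filter. Fold changes are log2 with SE and use TMM scaling, whereas CPM uses the library total. Alternatives were RLE and total-count scaling, other filters, DESeq2 1.42.0, separate FOXO3 libraries, only the libraries compared, the replicate number or the sex of the library as a term, and each library left out in turn. Total-count scaling moved the median of all genes for labelled Mll4 deletion from 0.035 to 0.24 (936 higher and 205 lower calls, 9 and 25 with RLE, against 184 and 128). Data were simulated with 14700 genes, of which only a small share was changed and the rest had the same mean in all groups. There the test recovered 69.7%, 23% and 49% of 4-fold changes for labelled Mll4 deletion, FOXO3 and transformations. Of 2-fold changes it recovered 10.7%, 0.333% and 2.33%. In the same order, a simulated run gave on average 80.3, 23.3 and 51.3 true calls and 11, 8.33 and 11 false calls. The false calls were thus a larger share than the threshold of 0.05 aims at. In the deposited data 3701, 2018 and 4197 genes had an unadjusted p under 0.05 in the edgeR test. Recovery after adjustment depends on how many genes change, so the simulated shares need not hold for these data. LSK libraries were compared by CPM ratios with 95% exact binomial (Clopper-Pearson) intervals, and 3 counts set the limit for a count of 0.

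Members and lists were chosen with earlier results of these data known. Of each pathway list the text may name the 2 called genes with the smallest p in a comparison, of each marker list the 2 with the highest mean CPM, and of promoters the 4 with CACGTG and the smallest p. Overlap counts in CPM and sums without Psap were added after seeing the data.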

Additional observations from a re-analysis of the deposited data

How the results depend on the processing

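The main fit had 2 libraries a group in the first transformation and 1 in each group of the second, where the FOXO3 files were summed. Most 2-fold changes were missed in the simulated data, in which only a small share of genes was changed. The calls depend on the intact libraries in the shared spread. In the simulated data the share of false calls was above the threshold aimed at.

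Members called for labelled Mll4 deletion (0) became 2 with total-count scaling, 1 without a filter, 15 with DESeq2 and 9 with separate FOXO3 libraries, and 0 to 2 with a library left out. All genes called (312) became 34 with RLE, 1141 with total-count scaling, 659 without a filter, 2079 with DESeq2, 2237 with separate FOXO3 libraries, 0 with only the libraries compared, 0 with sex as a term, and 0 to 1073 with a library left out. Members higher without overlap went from 1 to 3 in CPM by total count. For FOXO3, members called (0) became 2 with DESeq2, 2 with separate libraries, 32 with only the libraries compared, and 0 to 1 with a library left out. All genes (178) became 375 without a filter, 1055 with DESeq2, 1069 with separate libraries, 9710 with only the libraries compared, 0 with sex as a term and 0 to 1157 with a library left out. The 9710 rest on the FOXO3 pair alone for the spread. Between transformations, members called (7) became 20 with DESeq2, 17 with separate FOXO3 libraries, 0 with only the libraries compared, 0 with sex as a term and 0 to 17 with a library left out. All genes (1045) became 2764, 3260, 0 and 0 under these settings and 0 to 2613 with a library left out.

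With the replicate number as a block, members called were 7, 0 and 11 for labelled Mll4 deletion, FOXO3 and transformations, and all genes called 1408, 762 and 1500. The 2 pairs share only a number: deviations of same-numbered libraries correlated at 0.258 over 10442 genes, and sex crosses the numbers.

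Signs that turned were all of uncalled values. For labelled Mll4 deletion they were Man2b1 (0.12), Arsa (0.072), Galns (0.028) and Ppt1 (0.16) with total-count scaling and, with a library left out, Arsa (−0.39 to 0.024), Acp5 (−0.82 to 0.19) and Ids (−1.03 to 0.11). Between transformations they were Sgsh (0.0017 with RLE, 0.095 with total counts, 0.0026 with DESeq2, 0.015 with separate FOXO3 libraries and without either intact library, 0.012 with only the libraries compared, −0.091 to 0.071 with a library left out) and, with a library left out, Smpd1 (−0.28 to 0.047) and Acp5 (−0.96 to 0.033). Where a count moved, the cause was not tested. The gap between the medians of members and of all genes lay between −0.75 and −0.43, 0.21 and 0.22, and −1.02 and −0.78 in the 3 comparisons over all settings. LSK members past 2-fold (15) were 12 to 16 under the alternatives, but those higher went from 5 to 3 when only genes averaging 20 CPM or more were kept. The count of promoters with CACGTG stayed at 8.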
